A study of Homo sapiens with 6 samples.

Results

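The genes described here encode proteins of the cytosolic ribosome or paralogues of these proteins. They were taken as every gene whose symbol in the platform annotation has the form of a large-subunit (RPL) or small-subunit (RPS) protein name, without pseudogenes and without the kinases of ribosomal protein S6, and each was read from whichever of its probe sets was brightest on average in the 6 arrays. Of 14884 genes named on the array, 53 belonged to this group, and 52 of the 10640 genes that passed a brightness filter did. RPL10L alone did not pass the filter. The group does not hold every protein of the cytosolic ribosome. The genes RPL5, RPSA, RPLP0, RPLP1 and RPLP2, among others, were not named on the array. The cells were MDA-MB-231, a human line from a triple-negative breast cancer whose p53 is mutant, and they received an siRNA against ATM (siATM), an siRNA against p53 (sip53) or a control siRNA (siNC) by lipid transfection, with 2 arrays per siRNA. The time after transfection is not given in the labels. Whether replicate arrays were made from separate cultures is not recorded in the labels, so the p-values reflect array-to-array spread that may be technical. In RNA from whole cultures, fewer cells of a kind and less RNA per cell cannot be told apart.

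Each ribosome is built from a small subunit, which reads the mRNA, and a large subunit, which joins the amino acids, and their proteins are made in matched amounts from genes scattered over the genome. Their mRNAs typically begin with a terminal oligopyrimidine tract, a run of C and T bases in the gene at the transcription start, through which mTOR signalling and the RNA-binding protein LARP1 control translation and stability of these mRNAs. Several free ribosomal proteins, RPL5 and RPL11 above all, bind MDM2, the ligase that degrades p53, so that a fault in ribosome assembly can raise p53.

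The values are log2 probe-set signals, whose level depends on the probes, so the level of a ribosomal protein gene is compared between arrays and not with that of another gene. Ranks of marker genes by level are a rough check of the cell line only. The median over all probe sets lay between 5.95 and 5.98 in the 6 arrays. Of 6 markers expected to be high in this line 5 were named on the array, and VIM, CD44, EGFR, AXL and KRT18 all lay above the 94th percentile of genes by mean level. Of 6 markers expected to be low 4 were named. The hormone receptor genes ESR1 and PGR lay below the 25th percentile, while EPCAM and GATA3 lay at percentiles 77.3 and 68.4. GATA3 was called higher after both siRNAs, with mean log2 values of 8.39 (siATM), 8.73 (sip53) and 8.08 (siNC). Among 5 blood-cell and 5 fibroblast or endothelial markers, 2 and 3 were named. The summed log2 value of the 2 blood-cell markers was 16.8 to 16.9 in siATM arrays, 14.2 to 14.6 in sip53 arrays and 15.3 in siNC arrays, and that of the 3 other markers was 19.5 to 19.7 in siATM arrays, 20.0 to 20.1 in sip53 arrays and 19.4 to 19.6 in siNC arrays. After siATM CD14, LYZ and LUM were called higher and PECAM1 lower, so the second sum adds opposite changes, and after sip53 CD14 was called lower and LUM higher. Their part in the results below was not tested.

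The sequences around the annotated start of 6 genes are shown to illustrate the C and T bases near it. Matches to CTTTC were sought on both sides of the start, so a match need not lie in the mRNA. The first match in RPS27 lies before the start, and RPL38 has none. Whether a match is part of the tract by which these mRNAs are recognised was not tested. RPS27, RPL36AL, RPS21, RPL38 and RPL12 are higher with siATM in the results below, and RPL24, chosen after its values were seen, has the letters and a log2 fold change of −0.03. Each line gives the 30 bases before and the 20 bases from the start annotated in RefSeq (build GRCh38.p14), 5′ to 3′ on the strand of the gene, with matches to CTTTC in capitals.
RPS27, chr1:153990732-153990781, plus strand: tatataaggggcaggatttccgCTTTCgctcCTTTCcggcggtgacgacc
RPL36AL, chr14:49620607-49620656, minus strand: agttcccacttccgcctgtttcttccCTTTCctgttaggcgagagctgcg
RPS21, chr20:62387073-62387122, plus strand: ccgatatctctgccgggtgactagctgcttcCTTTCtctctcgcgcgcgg
RPL38, chr17:74203648-74203697, plus strand: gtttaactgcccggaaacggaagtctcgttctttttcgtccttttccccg
RPL12, chr9:127451387-127451436, minus strand: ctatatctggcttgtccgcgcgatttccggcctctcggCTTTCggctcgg
RPL24, chr3:101686699-101686748, minus strand: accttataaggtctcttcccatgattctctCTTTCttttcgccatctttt

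Promoter windows were found for 48 of the 53 genes. The letters CTTTC, searched on the sense strand within 20 bases of the start, were present in 26 of these 48 genes (54.2%), against 6.96% of the 27305 genes in the promoter table and 6.74% of the 8223 tested genes in it. The longest run of C and T in that window had a median of 11 bases in ribosomal protein genes and 5 bases in all genes. CCGGAAG, the core bound by ETS factors, was found on either strand between 250 bases before and 50 bases after the start in 31.2% of the ribosomal protein genes, 12.2% of all genes and 20.3% of tested genes. The E-box CACGTG, which reads the same on both strands, was found in 8.33%, 8.77% and 12.1% of them. Of the 10 genes called higher after siATM 7 held CTTTC, and of the 37 not called 19 did, so genes of both kinds carried it. RPL38 held none. Some genes have several annotated starts and count once, if any start holds the letters.

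After siATM, 10 of the 52 genes were higher and 1, RPL39L, was lower than with siNC (limma, adjusted p below 0.05). Of all 10640 tested genes, 12.5% were called higher and 13.0% lower. In either direction 21.2% of the ribosomal protein genes were called, against 25.5% of all tested genes, so they were not called more often than other genes. Their fold changes were mostly of one sign, with 46 of 52 above 0, against 49.9% of all tested genes, and the median log2 fold change was 0.12, against −0.0013 over all other tested genes. Both siATM arrays lay above both siNC arrays for 35 of the 52 genes and below for 5, where 31.9% and 30.8% of all tested genes did so. Among the 7 tested paralogues, gene copies with symbols ending in L or L1, 1 was called higher and 1 lower. Of these, 4 lay above 0, and their median was 0.01. Among the 45 genes without them, 9 were called higher and 0 lower, 42 lay above 0, and the median was 0.12.

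The sizes were small. The middle of the distribution, between the quartiles, ran from 0.06 to 0.20 on the log2 scale in ribosomal protein genes and from −0.13 to 0.13 in all other tested genes, and the largest rise was 1.32-fold. The replicate arrays of a group differed by a median of 0.06 (siATM), 0.04 (sip53) and 0.06 (siNC) over the ribosomal protein genes. Among the 2660 brightest tested genes the median log2 fold change was 0.14 for the 20 ribosomal protein genes and 0.02 for all. The median deviation of the 52 genes from the siNC mean was 0.13 and 0.09 in the siATM arrays and 0.01 and 0.03 in the sip53 arrays. The number of calls was 11, against 5 without the brightness filter, and it fell in most fits that left out 1 array. The median log2 fold change was 0.09 without siATM replicate 1 and 0.13 without siATM replicate 2. It was 0.14 without siNC replicate 1 and 0.10 without siNC replicate 2. The sip53 arrays do not enter this difference. Leaving out either sip53 array kept the median at 0.12 and changed only the spread estimate.

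**Figure D1:**
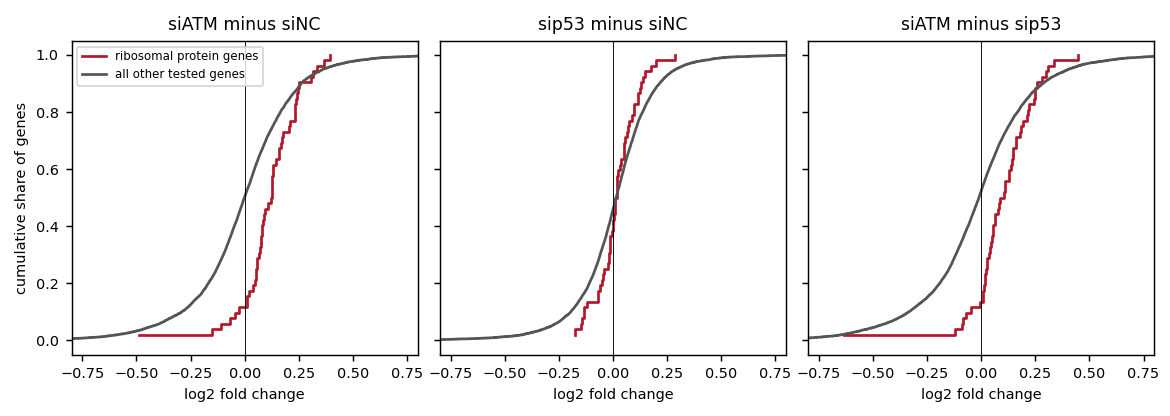
Cumulative share of genes (vertical axis) against log2 fold change (horizontal axis, −0.8 to 0.8) for the 52 ribosomal protein genes and all other tested genes in the 3 comparisons. In siATM minus siNC and in siATM minus sip53 the ribosomal protein genes lie mostly to the right of the others, with medians of 0.12 and 0.10, while in sip53 minus siNC their median is 0.01.

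**Figure D2:**
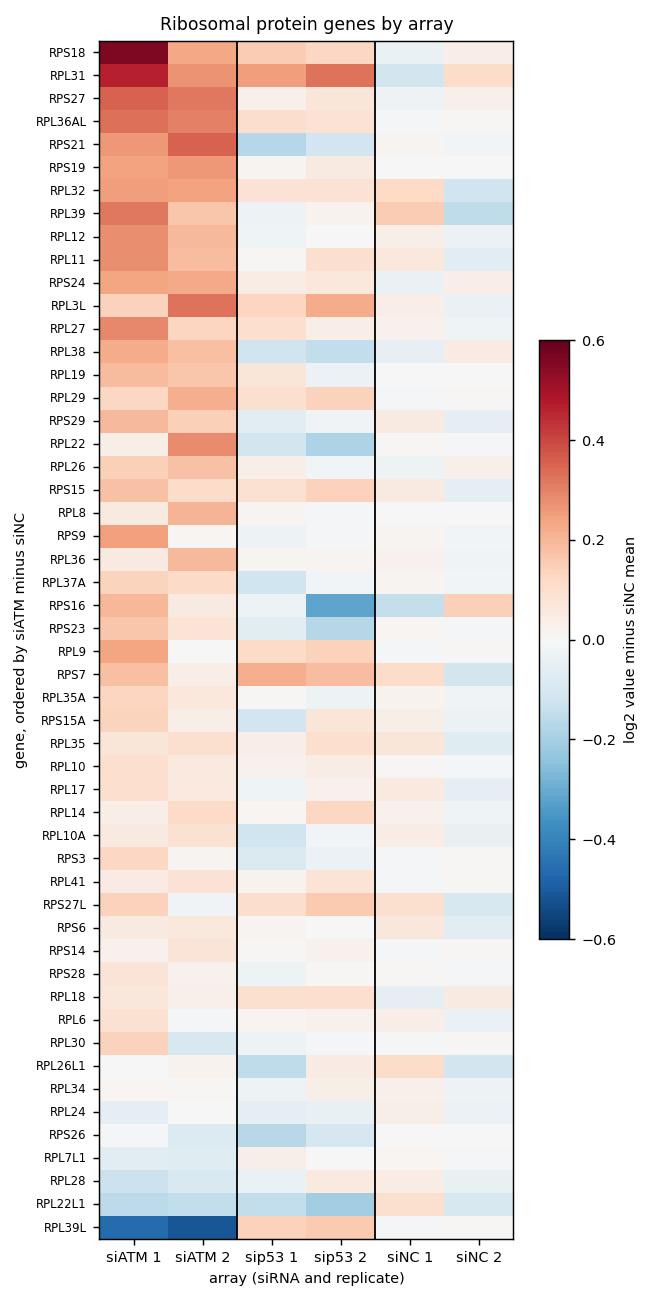
Log2 value minus the siNC mean (colour, −0.6 to 0.6) for 52 ribosomal protein genes (rows, ordered by siATM minus siNC) in each of the 6 arrays (columns). Both siATM columns are mostly above 0, with RPL39L in the bottom row the clearest exception.

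RPS27, RPL36AL and RPL39L were the genes whose call after siATM held in all 6 fits that left out 1 array. RPS27, a zinc-finger protein of the small subunit, had log2 values of 12.45 and 12.41 with siATM, 12.12 and 12.17 with sip53, and 12.06 and 12.12 with siNC. The siATM arrays stood above the other 4, whose ranges overlapped. The gene rose 1.26-fold after siATM (log2 fold change 0.34, SE 0.06, adjusted p = 0.0063). Its probe-set number lies among those of genes on another chromosome, as all 10 of the nearest named probe sets belong to chromosome 12 genes and RefSeq places RPS27 on chromosome 1. Whether it reads RPS27 itself or a copy elsewhere was not tested.

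RPL36AL, an intronless copy of the large-subunit gene RPL36A, had 7.99 and 7.97 with siATM, 7.77 and 7.75 with sip53, and 7.66 and 7.67 with siNC. Its 3 groups did not overlap, and siATM was highest. The rise with siATM over siNC was 1.25-fold (log2 fold change 0.32, SE 0.05, adjusted p = 0.00597). RPL39L is the paralogue of RPL39, a small protein that lines the tunnel through which the new chain leaves the ribosome, and it is known for its expression in male germ cells and in some cancer cells. RPL39L had 6.73 and 6.68 with siATM, 7.34 and 7.35 with sip53, and 7.19 and 7.20 with siNC. It was the lowest in siATM arrays by a wide margin, and it fell 1.40-fold (log2 fold change −0.49, SE 0.06, adjusted p = 0.00136). RPL39 itself had 9.68 and 9.53 with siATM, 9.33 and 9.38 with sip53, and 9.51 and 9.21 with siNC, with a log2 fold change of 0.24 after siATM (95% interval −0.0013 to 0.48, adjusted p = 0.132) that did not pass the test.

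Among small-subunit proteins, RPS18, RPS21, RPS19 and RPS24 were also higher after siATM. RPS21, which sits on the outer face of the subunit, had 9.43 and 9.53 with siATM, 9.003 and 9.06 with sip53, and 9.19 and 9.16 with siNC. The groups did not overlap, and sip53 was the lowest. The log2 fold change after siATM was 0.31 (SE 0.06, adjusted p = 0.0113). RPS19, the gene most often mutated in Diamond-Blackfan anaemia, had 12.37 and 12.39 with siATM, 12.14 and 12.18 with sip53, and 12.13 and 12.13 with siNC. RPS24, another gene of that disease, had 8.73 and 8.72 with siATM, 8.53 and 8.55 with sip53, and 8.45 and 8.53 with siNC. In both, the siATM arrays stood above the other 4, by log2 fold changes over siNC of 0.25 (adjusted p = 0.0153) and 0.23 (adjusted p = 0.0241). Leaving out siNC replicate 1 or siNC replicate 2 ended the calls of RPS21 (adjusted p at most 0.0659) and RPS19 (at most 0.0749), and that of RPS24 held in none of the 6 fits without an array (at most 0.134).

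RPS18, at the head of the small subunit, had 10.20 and 9.87 with siATM, 9.79 and 9.76 with sip53, and 9.60 and 9.68 with siNC. It had the largest fold change after siATM, 1.32-fold (log2 fold change 0.40, SE 0.10, adjusted p = 0.0297), but also the widest gap between siATM arrays, 0.33, and its call did not hold without siATM replicate 1, siNC replicate 1 or siNC replicate 2 (highest adjusted p = 0.135). The 10 nearest named probe sets belong to chromosome 3 genes, while RefSeq places RPS18 on chromosome 6. A dimmer RPS18 probe set, whose 10 nearest named neighbours all belong to chromosome 6 genes, had 9.91 and 9.84 with siATM, 9.64 and 9.63 with sip53, and 9.70 and 9.64 with siNC. Tested on its own, that probe set gave a smaller log2 fold change of 0.20 (SE 0.06, adjusted p = 0.0472).

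Of the large-subunit proteins, RPL31, RPL12, RPL11 and RPL38 were called higher after siATM beside RPL36AL. The nearest named probe sets to those of RPL31 and RPL12 were scattered over chromosomes. The commonest chromosome was 9 for RPL31 and 12 for RPL12, each with 2 of 10, while RefSeq places the genes on 2 and 9. Whether these probe sets read the genes themselves or copies elsewhere was not tested. RPL31, at the rim of the exit tunnel, had 7.72 and 7.52 with siATM, 7.51 and 7.58 with sip53, and 7.14 and 7.37 with siNC. Both knockdown groups stood above siNC, with log2 fold changes of 0.37 after siATM (SE 0.10, adjusted p = 0.0294) and 0.29 after sip53 (SE 0.10, adjusted p = 0.108). The call after siATM was lost without siATM replicate 1 or siNC replicate 1 (adjusted p up to 0.150). RPL12, at the base of the stalk that recruits elongation factors, had 12.74 and 12.65 with siATM, 12.44 and 12.46 with sip53, and 12.49 and 12.43 with siNC. The siATM arrays stood above the other 4 (log2 fold change over siNC 0.24, SE 0.06, adjusted p = 0.0278), and the call held only without siATM replicate 2 among the 6 fits that left out an array.

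RPL11 carries 5S rRNA into the large subunit together with RPL5, which is not named on the array, and binds MDM2. RPL11 had 9.69 and 9.60 with siATM, 9.42 and 9.50 with sip53, and 9.47 and 9.35 with siNC. Its log2 fold change was 0.23 after siATM (SE 0.07, adjusted p = 0.049) and 0.05 after sip53 (SE 0.07, adjusted p = 0.708). RPL38, known in mice for its part in the translation of Hox mRNAs, had 8.43 and 8.39 with siATM, 8.09 and 8.06 with sip53, and 8.16 and 8.26 with siNC. Its groups did not overlap, and the log2 fold change after siATM was 0.20 (SE 0.06, adjusted p = 0.0479). Both calls were at the edge of the threshold. Each fit without 1 array ended them, with adjusted p reaching 0.230 for RPL11 and 0.226 for RPL38. With the replicate number as a block the adjusted p was 0.0585 for RPL11 and 0.063 for RPL38.

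**Figure D3:**
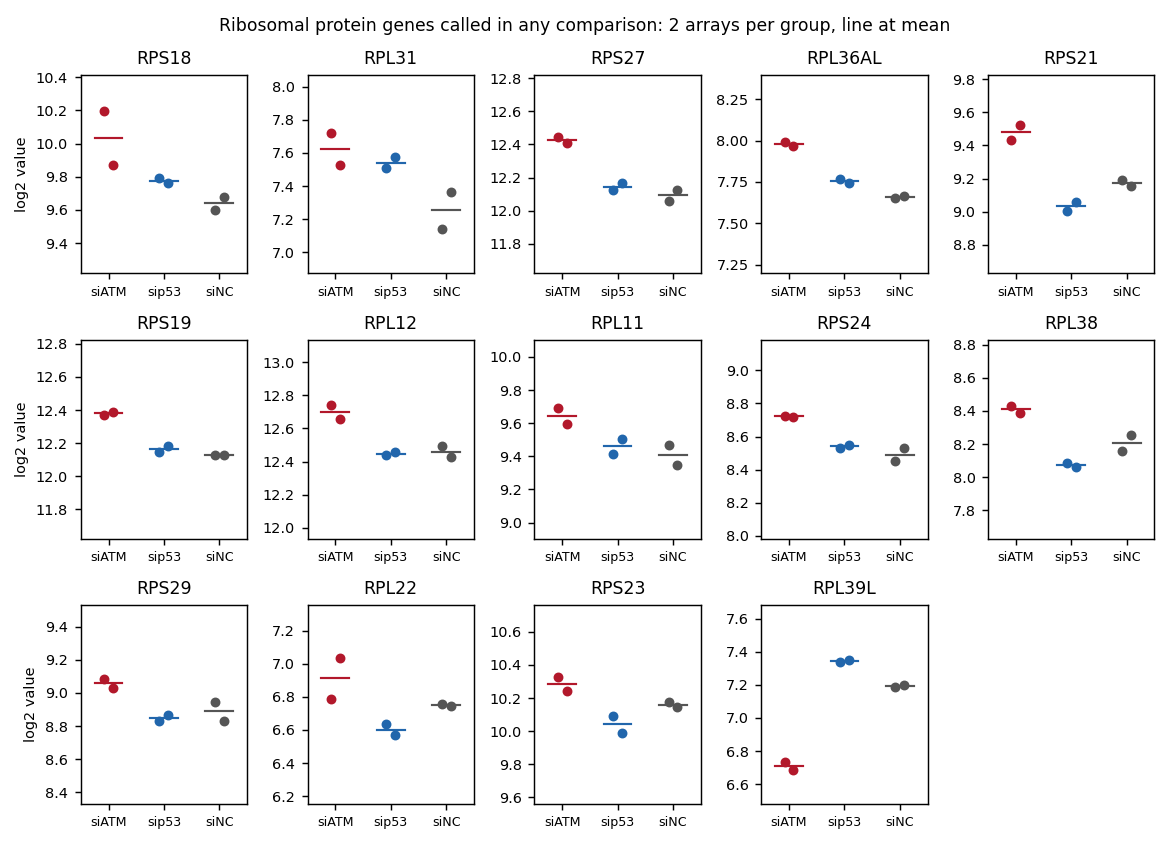
Log2 values of the 14 ribosomal protein genes called in any comparison, 1 panel per gene, with 2 arrays per siRNA as points and their mean as a line; each vertical axis spans 1.2 log2 units. The siATM arrays are highest in 13 panels by their mean and lowest in the RPL39L panel.

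By subunit, 5 of 18 small-subunit genes were called higher and 0 lower after siATM, and 5 of 34 large-subunit genes were called higher and 1 lower, with median log2 fold changes of 0.12 and 0.11, beside 12.5% of all tested genes called higher and 13.0% lower. The 5 small-subunit calls became 3 without siATM replicate 1, 1 without either siNC array and 3 without the filter. The 5 higher large-subunit calls became 2 without either sip53 array or siNC replicate 2, 3 without siATM replicate 1 or siNC replicate 1, and 1 without the filter. Of 15 tested genes mutated in Diamond-Blackfan anaemia, 5 were higher (RPS19, RPL11, RPS24, RPL31 and RPS27) and 0 lower, with a median of 0.16, beside the same 12.5% and 13.0%. That count of 5 became 1 without siNC replicate 1, 2 without siNC replicate 2 or siATM replicate 1, 3 without either sip53 array and 2 without the filter. Of 10 tested ribosomal proteins reported to bind MDM2, 2 were higher (RPL11 and RPS27) and 0 lower, with a median of 0.09, and the count of 2 became 1 in each of the 6 fits without an array and without the filter. Without siATM replicate 1 that median was 0.06, and without siATM replicate 2 it was 0.14. These lists overlap, since RPL11 and RPS27 stand in both, and each median is beside −0.0013 for all other tested genes. All are parts of the 52 ribosomal protein genes, of which 10 were higher and 1 lower, with a median of 0.12. Of these 52 genes 46 lay above 0, so a shift of this sign was not particular to any of the lists. The lists were chosen with earlier results of these data known.

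Other paralogues were read with their parent genes where both were named. RPL22L1, which can replace RPL22 in the large subunit, had 8.67 and 8.68 with siATM, 8.68 and 8.62 with sip53, and 8.92 and 8.73 with siNC. RPL22 had 6.79 and 7.03 with siATM, 6.64 and 6.57 with sip53, and 6.76 and 6.74 with siNC. Neither was called against siNC, with log2 fold changes after siATM of −0.15 (95% interval −0.33 to 0.02) for RPL22L1 and 0.16 (−0.04 to 0.36) for RPL22. RPL26L1 had 7.63 and 7.65 with siATM, 7.48 and 7.68 with sip53, and 7.74 and 7.52 with siNC, which overlap throughout. RPL26, which in human cells also binds p53 mRNA, had 9.78 and 9.82 with siATM, 9.68 and 9.63 with sip53, and 9.61 and 9.67 with siNC (log2 fold change after siATM 0.16, adjusted p = 0.0857). RPS27L, a known p53 target and the paralogue of RPS27, had 6.71 and 6.55 with siATM, 6.68 and 6.73 with sip53, and 6.67 and 6.48 with siNC. Its log2 fold change after sip53 was 0.13 (95% interval −0.07 to 0.33, adjusted p = 0.382), so no change was detected with 2 arrays per group.

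RPL3L and RPL7L1, whose parent genes were not named, did not pass in any comparison. RPL3L, the striated-muscle paralogue of RPL3, had 6.67 and 6.85 with siATM, 6.66 and 6.75 with sip53, and 6.57 and 6.49 with siNC. RPL7L1, a nucleolar paralogue of RPL7, had 9.42 and 9.41 with siATM, 9.52 and 9.48 with sip53, and 9.50 and 9.47 with siNC. RPL3L lay highest and RPL7L1 lowest in the siATM arrays by the mean, with log2 fold changes over siNC of 0.23 (adjusted p = 0.0692) and −0.07 (adjusted p = 0.413). RPL10L, a testis copy of RPL10 and the gene left out by the filter, had 4.28 and 4.75 with siATM, 4.35 and 4.49 with sip53, and 4.45 and 4.32 with siNC. RPL28, a large-subunit protein, had 7.96 and 7.996 with siATM, 8.05 and 8.15 with sip53, and 8.13 and 8.04 with siNC, and together with RPL39L and RPL7L1 it was one of the 3 genes with both siATM arrays below all others.

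RPL41 showed how far the reading depends on the probe set. Its brightest probe set had 13.07 and 13.11 with siATM, 13.04 and 13.11 with sip53, and 13.01 and 13.03 with siNC, a log2 fold change after siATM of 0.07 (SE 0.06). Of its 4 dimmer probe sets, 3 had log2 fold changes of 0.32, 0.30 and 0.29 after siATM, and 2 of these passed when each probe set was tested on its own (adjusted p = 0.0382 and 0.0447). The dimmest had −0.07. RPL10 and RPS28, the other genes near the top of the scale, had log2 fold changes after siATM of 0.08 and 0.05. RPL10, which helps form the catalytic centre, had 13.39 and 13.35 with siATM, 13.31 and 13.34 with sip53, and 13.30 and 13.28 with siNC. RPS28, a small-subunit protein near the mRNA exit, had 13.19 and 13.14 with siATM, 13.08 and 13.12 with sip53, and 13.12 and 13.11 with siNC. The RPS28 probe set, too, has neighbours on another chromosome (11, in 10 of 10 cases, against 19 for the gene). The neighbours of the RPL12, RPL31 and RPL10 probe sets, and of 3 RPL41 probe sets including the brightest, were scattered, and their commonest chromosome, with 2 to 4 of 10 neighbours, was not that of the gene. RPL19 and RPL39, with 2 probe sets each, had positive values in both after siATM and none that passed.

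**Figure D4:**
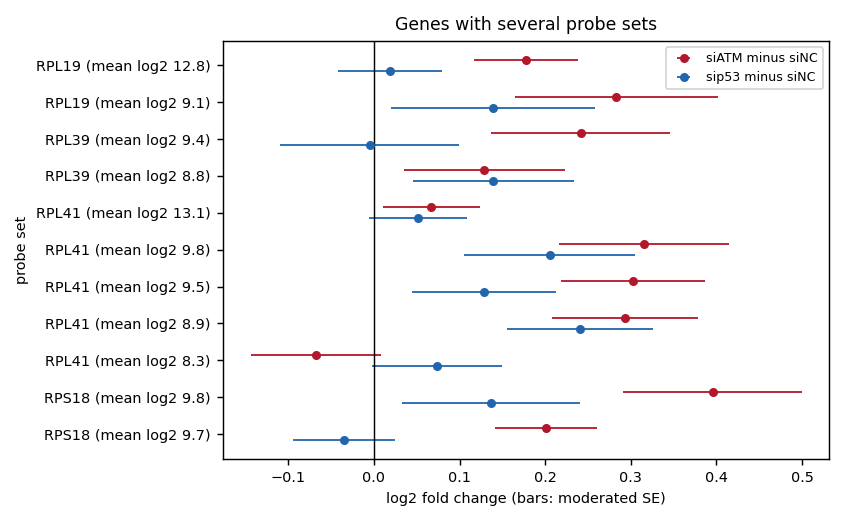
Log2 fold change (horizontal axis, with moderated SE) of each probe set (vertical axis, labelled by gene and mean log2 value) for the 4 ribosomal protein genes with more than 1 probe set, in siATM minus siNC and sip53 minus siNC. The 5 RPL41 probe sets range from −0.07 to 0.32 in siATM minus siNC, and the 2 RPS18 probe sets are at 0.40 and 0.20.

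After sip53, 0 of the 52 genes passed the test against siNC (limma, adjusted p below 0.05), where 10.6% of all tested genes did, 5.47% higher and 5.11% lower. At an unadjusted p below 0.05 there were 3, RPL31, RPL39L and RPL22L1, named after their values were seen, beside 2812 of the 10640 tested genes. With the filter at the 70th percentile RPL31 passed (adjusted p = 0.0473). The median log2 fold change was 0.01, the same as for all other tested genes, with 32 of 52 above 0. Both sip53 arrays lay above both siNC arrays for 17 genes and below for 9, against 33.1% and 25.8% of all tested genes. The sign of this median depended on the scaling, which was −0.02 after centring every array on the tested genes' median. The comparisons with siNC share the siNC arrays and are therefore not independent.

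The genes with the highest values after sip53 were RPL31 (0.29), RPS7 (0.20) and RPL3L (0.18), and those with the lowest were RPL22L1 (−0.18), RPS16 (−0.18) and RPL22 (−0.15). RPS7, one of the MDM2-binding proteins, had 6.88 and 6.74 with siATM, 6.91 and 6.88 with sip53, and 6.81 and 6.59 with siNC. RPS16, a protein of the small-subunit head, had 8.82 and 8.67 with siATM, 8.59 and 8.30 with sip53, and 8.48 and 8.76 with siNC. RPS16 had the widest gap between sip53 arrays, 0.29, and its siNC arrays overlapped both other groups, while both siATM arrays lay above both sip53 arrays. RPL39L was higher in both sip53 arrays than in both siNC arrays, with a log2 fold change of 0.15 (95% interval 0.02 to 0.28, adjusted p = 0.14) that did not pass.

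**Figure D5:**
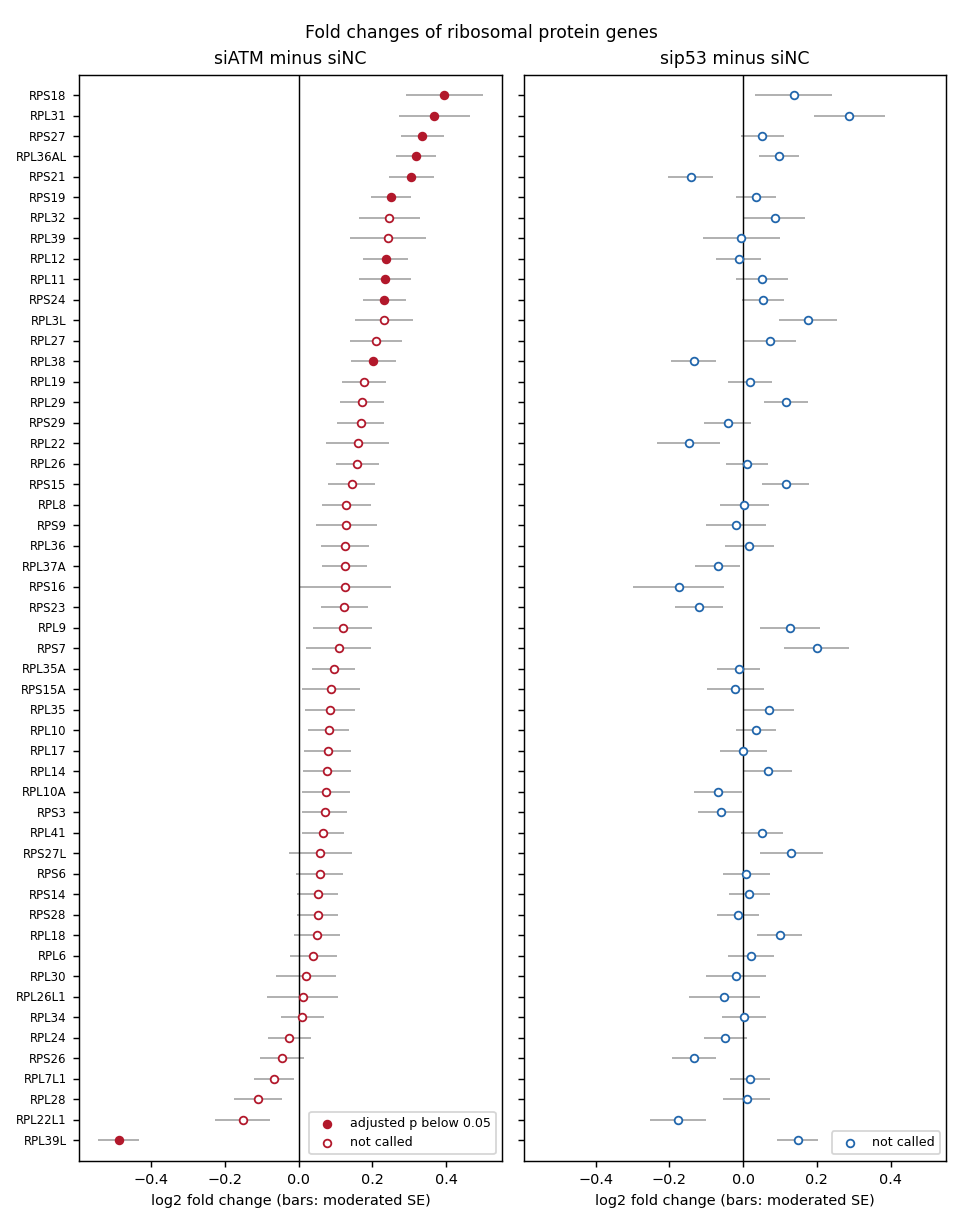
Log2 fold change with its moderated SE (horizontal axes) of the 52 ribosomal protein genes (vertical axis, ordered by siATM minus siNC) in siATM minus siNC and in sip53 minus siNC; filled points passed an adjusted p below 0.05. There are 11 filled points after siATM, from −0.49 (RPL39L) to 0.40 (RPS18), and 0 after sip53.

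Set directly against sip53, siATM gave 9 of the 52 genes higher and 1, RPL39L, lower, where 14.0% of all tested genes were called higher and 16.3% lower. In either direction 19.2% of ribosomal protein genes were called, against 30.3% of all tested genes. The median log2 difference was 0.10, against −0.01 over all other tested genes, and 45 of 52 lay above 0, against 47.8% of all tested genes. Both siATM arrays were above both sip53 arrays for 31 genes, where 31.0% of tested genes were, and below for 5, where 34.4% were. Leaving out siATM replicate 1 took the count of 10 to 6, leaving out sip53 replicate 1 took it to 3 and leaving out sip53 replicate 2 took it to 4. It was 4 without the brightness filter, and 17 when the variance was moderated robustly along a trend with level.

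RPL39L (log2 difference −0.64, SE 0.06, adjusted p = 0.000424), RPS21 (0.45, SE 0.06, adjusted p = 0.00196) and RPL38 (0.34, SE 0.06, adjusted p = 0.0059) kept their calls in all 6 fits that left out an array. For RPS21 and RPL38 the sip53 arrays lay below the siNC arrays and the siATM arrays above them. RPS27, RPL12, RPL36AL and RPS19 were also called in this comparison as well as against siNC, with differences between 0.22 and 0.28. RPL22, RPS23 and RPS29 were called in this comparison but not against siNC. RPS23, a protein of the decoding centre, had 10.33 and 10.24 with siATM, 10.09 and 9.99 with sip53, and 10.17 and 10.15 with siNC. RPS29, a zinc-binding protein of the small subunit, had 9.08 and 9.03 with siATM, 8.83 and 8.87 with sip53, and 8.94 and 8.83 with siNC. In RPL22 and RPS23 the siATM values lay above and the sip53 values below those of siNC, while in RPS29 the sip53 and siNC ranges overlapped. The RPS29 call held in none of the 6 fits without an array (highest adjusted p = 0.185), and RPL22 kept its call only without siATM replicate 1.

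In both siATM arrays together, 27 of the 52 genes (51.9%) lay above all other 4 arrays, where 21.3% of all tested genes did, and 3 lay below, where 22.0% did.

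Pseudogenes of ribosomal proteins were also printed on the array, and their probes can share sequence with the parent transcripts. Of 13 tested pseudogenes, 3 were higher and 0 lower after siATM, with a median log2 fold change of 0.21. These are 23.1% of the list called, against 25.5% of all tested genes (12.5% higher, 13.0% lower). The count of 3 became 5 without siATM replicate 2, 2 without siATM replicate 1 or siNC replicate 2, and 1 without either sip53 array, without siNC replicate 1 or without the filter, and the median was 0.10 without siATM replicate 1. RPL23AP87 had 8.50 and 8.45 with siATM, 7.99 and 7.96 with sip53, and 7.82 and 7.91 with siNC, a rise over siNC of 0.61 on the log2 scale (SE 0.06, adjusted p = 0.000925). RPL32P3 (0.25, adjusted p = 0.0409) and RPL13AP20 (0.24, adjusted p = 0.0328) also rose, and each kept its call in 1 of the 6 fits that left out an array.

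Of 57 tested assembly factors, which build ribosomes mainly in the nucleolus, 7 were lower and 1 was higher after siATM, with a median log2 fold change of −0.08 and 18 above 0. MAK16, a factor of large-subunit assembly, fell by 0.64 on the log2 scale (SE 0.08, adjusted p = 0.00232), the RNA helicase gene DDX21 fell by 0.53 (SE 0.06, adjusted p = 0.00119) and NOLC1, a nucleolar chaperone, fell by 0.50 (SE 0.06, adjusted p = 0.00215). DDX21 had 9.70 and 9.68 with siATM, 10.28 and 10.21 with sip53, and 10.20 and 10.23 with siNC, so the siATM arrays stood below the other 4. The higher gene, RRS1, named after its values were seen, had a log2 fold change of 0.23 (adjusted p = 0.0402), and its call was lost without the filter, with centred arrays, with the replicate block and in all 6 fits without an array. The count of 7 lower genes became 4 without siNC replicate 1. Against 13.0% of all tested genes called lower, 12.3% of this list was, so calls were not more frequent than elsewhere. After sip53, 4 of the 57 were higher and 1, MAK16, was lower, with a median of 0.06, beside 5.47% of all tested genes called higher and 5.11% lower, and DDX52 (0.35, adjusted p = 0.0208), RIOK2 (0.32, adjusted p = 0.0298) and MAK16 (−0.66, adjusted p = 0.00486) had the largest changes. The 4 higher calls became 0 without either sip53 array, without siNC replicate 1 or without the filter, and 1 without siNC replicate 2.

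With siATM against sip53, 17 of the 57 assembly factors were lower and 2 higher, with a median log2 difference of −0.09, beside 16.3% and 14.0% of all tested genes. NOLC1 (−0.75), RRP1B (−0.64) and DDX21 (−0.56) had the largest differences, and each kept its call in all 6 fits that left out an array. The count of 17 lower became 8 without either sip53 array.

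Of 8 tested genes of RNA polymerases I and III, which make the ribosomal RNAs, 1 was lower and 0 higher after siATM, beside 13.0% and 12.5% of all tested genes. After sip53 2 were higher and 2 lower, beside 5.47% and 5.11%. The 2 higher calls became 1 without either siATM array, siNC replicate 2 or the filter, and 0 without either sip53 array or siNC replicate 1, and the 2 lower calls became 1 without either sip53 array or siNC replicate 2. POLR3G, a subunit of polymerase III, had 7.05 and 6.77 with siATM, 8.15 and 8.19 with sip53, and 7.50 and 7.57 with siNC. It lay below siNC in the siATM arrays (log2 fold change −0.63, SE 0.09, adjusted p = 0.00373) and above it in the sip53 arrays (0.63, SE 0.09, adjusted p = 0.00838), and the direct difference was −1.26 (adjusted p = 0.000313). The polymerase I subunit genes POLR1H (−0.59, adjusted p = 0.004) and POLR1F (−0.43, adjusted p = 0.00764) fell after sip53. POLR3G and POLR1F after sip53 lost their calls in 3 of the 6 fits that left out an array.

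Among other genes whose mRNAs start with the same tract, 1 of 9 tested translation genes (11.1%) was called after siATM, higher, where 12.5% of all tested genes were called higher. Without siATM replicate 1 there were 2 higher, and without siATM replicate 2 there was 1 lower as well. The called gene was EIF4B, a cofactor of the helicase that unwinds mRNA leaders, with 11.10 and 11.26 with siATM, 10.77 and 10.81 with sip53, and 10.73 and 10.81 with siNC (log2 fold change over siNC 0.41, SE 0.07, adjusted p = 0.00634). Of 7 small nucleolar RNA host genes, 1 was higher after siATM, EPB41L4A-AS1 (0.33, adjusted p = 0.0138), and 1 was lower after sip53, SNHG16 (−0.35, adjusted p = 0.0121), beside 12.5% of all tested genes higher after siATM and 5.11% lower after sip53. EPB41L4A-AS1 lost its call without siATM replicate 2 and without siNC replicate 1 (adjusted p at most 0.086), and SNHG16 lost its call whichever of the sip53 or siNC arrays was left out (at most 0.0868). FAU, whose product is processed into a small-subunit protein, had 8.05 and 7.98 with siATM, 7.83 and 8.11 with sip53, and 7.88 and 7.88 with siNC, and was not called.

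Of 10 tested genes of mTOR signalling or translation control (the mTOR list), 3 were higher and 2 lower after siATM, beside 12.5% and 13.0% of all tested genes. After sip53 0 of them passed (limma), and 2 had an unadjusted p below 0.05, beside 2812 of the 10640 tested genes. MTOR, the kinase itself, had 9.39 and 9.39 with siATM, 9.74 and 9.81 with sip53, and 9.71 and 9.74 with siNC. It fell by 0.34 on the log2 scale after siATM (SE 0.06, adjusted p = 0.0056), and the siATM arrays stood below all others. EEF2K, which inhibits elongation, rose by 0.32 (SE 0.06, adjusted p = 0.00651) and PDCD4, an inhibitor of initiation, rose by 0.43 (SE 0.13, adjusted p = 0.0494). MTOR and EEF2K kept their calls in all 6 fits that left out an array, and PDCD4 in 1. The count of 3 became 2 without either siATM or either sip53 array, and 1 without either siNC array or without the filter. The count of 2 lower became 1 in those fits, except without siATM replicate 1, where it was 2.

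The median log2 fold change after siATM was 0.10 for the translation genes with the tract, 0.06 for the host genes, −0.04 for the polymerase genes and −0.03 for the mTOR list, beside −0.0013 for all other tested genes. Without siATM replicate 1 the medians of the host genes and the mTOR list changed sign, to −0.10 and 0.0056. After sip53, 0 pseudogenes and 0 translation genes were called (limma), and 1 of each had an unadjusted p below 0.05, beside 2812 of the 10640 tested genes. With siATM against sip53, where 14.0% of all tested genes were called higher and 16.3% lower, 3 pseudogenes were higher and 1 lower, and 1 translation gene was higher (EIF4B, 0.40) and 1 lower (EEF1D, −0.26). The EEF1D call held in 1 of the 6 fits without an array and was lost without the filter, with quantile normalization and with centred arrays. In the same comparison 2 host genes were higher and 1 lower, 2 polymerase genes were higher and 2 lower, and 1 gene of the mTOR list was higher and 4 were lower. Except for the polymerase genes, which kept at least 2 calls each way, these small counts moved by more than 1.5 times when single arrays were left out: the pseudogenes had 1 to 6 higher and 0 to 1 lower, the host genes 0 to 1 higher and 0 to 1 lower, the translation genes 1 to 2 higher and 0 to 1 lower, and the mTOR list 0 to 2 higher and 2 to 3 lower.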

How the data were processed

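RNA from 6 samples was hybridised to Affymetrix Human Gene 2.0 ST arrays, 1 sample per array. The authors deposited 1 log2 value per probe set and array (scale read from the values, 1.33 to 14.2). For background correction, summarisation and normalization, the method was not given in the sources used here. Array medians (5.95 to 5.98) were close, so a change in total RNA per cell would not show. Of 53617 probe sets, 16098 had 1 gene symbol, 0 had several and 37519 were unnamed here; all 53 ribosomal protein genes matched a RefSeq gene. Scanner files were not used, so detection, scan date and batch were not tested.

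Genes with a mean at or above 5.96, the median of probe-set means, were tested. Group means were fitted to all 6 arrays with limma 3.58.1 (R 4.3.3), with 3 residual and 7.29 total degrees of freedom, Benjamini-Hochberg adjustment over all 10640 genes and a threshold of 0.05, in two-sided tests. The procedure was tested on simulated data. Every array's value is given for RPL11 and for members that were called, were among the 3 highest or lowest of a comparison, were among the 3 brightest or dimmest, or were paralogues or their parents. Other lists gave up to 3 called genes of largest change per comparison. Probes of near-identical genes and of pseudogenes share sequence, so such values are uncertain. The members and lists were chosen with earlier results of these data known. Promoter sequences are from RefSeq, GRCh38.p14. Alternatives were other filters, probe-set averaging, quantile normalization, centring, a variance trend, the replicate block and leaving out each array.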

Additional observations from a re-analysis of the deposited data

Results flagged for a closer look

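The effects of the knockdowns differed in the direct comparison of siATM with sip53 for 10 ribosomal protein genes (limma, adjusted p below 0.05 over all tested genes). The log2 difference, siATM minus sip53, was 0.45 for RPS21, 0.34 for RPL38, 0.31 for RPL22, 0.28 for RPS27, 0.25 for RPL12, 0.24 for RPS23, 0.22 for RPL36AL, 0.22 for RPS19 and 0.21 for RPS29. It was −0.64 for RPL39L. In each of the 10 genes the 2 siATM arrays did not overlap the 2 sip53 arrays. The genes were picked by a test on these same arrays, so the separation is not further evidence. Over all tested genes, both siATM arrays lay above both sip53 arrays for 31.0% and below for 34.4%. In either direction 30.3% of all tested genes were called, against 19.2% of the ribosomal protein genes.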

How the results depend on the processing

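The median log2 fold change of the ribosomal protein genes after siATM stayed between 0.09 and 0.14 over all alternatives, and that of siATM against sip53 between 0.06 and 0.13, with the lowest, 0.0562, without sip53 replicate 1. After sip53 it ran from −0.02 to 0.04 and changed sign. Calls of these genes moved more. For siATM against siNC they rose to 16 of 47 with the filter at the 70th percentile and to 16 of 52 under robust moderation along a variance trend. After siATM 11 became 4 to 11 when 1 array was left out and 5 without the brightness filter. For siATM against sip53 10 became 3 to 9, 4 without the filter and 17 under robust moderation along a variance trend. After sip53 0 were called, also when 1 array was left out, and 1 with the filter at the 70th percentile. Over all tested genes, calls after siATM ran from 1437 to 2226 when 1 array was left out, after sip53 from 272 to 1242 and for siATM against sip53 from 1842 to 2852. After sip53 they were 1126, against 481 without the filter and 1742 under robust moderation along a variance trend. The split after sip53, 582 higher and 544 lower, was 410 and 668 with centred arrays. Fits without an array have fewer samples, and other causes were not tested. For each comparison, both fits without an array of the siRNA outside it gave the same result. Only the spread estimate changed in them, so the fits that left out an array are not all distinct. No value of a named gene that was called changed sign under any alternative. The analysis of each probe set on its own was added after the data were seen, and it ended the calls of RPL11 and RPL38 after siATM (adjusted p = 0.0524 and 0.051).

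The replicate numbers gave no known pairing: differences between replicates 1 and 2 correlated across genes by 0.117 (siATM and sip53), 0.0363 (siATM and siNC) and 0.0277 (sip53 and siNC). With the replicate block, 10, 0 and 10 ribosomal protein genes were called after siATM, after sip53 and for siATM against sip53. The number of arrays limits the precision.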
